A study of Mus musculus with 8 samples.

Results

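The genes for ribosome biogenesis and for RNA polymerases I and III were taken from the deposited tables by symbol. A gene was a member if its symbol was Utp, Nop, Rrp, Nol, Polr1 or Polr3 followed by a digit or by a single letter, or if it was Ncl, Npm1, Fbl, Bop1, Pes1, Wdr12, Ddx21, Tsr1, Dkc1, Gar1, Nhp2, Rrs1, Bms1 or Nip7. This rule found 65 members among 18631 genes. It reads symbols and no expression value, but the members and the other gene lists were chosen with earlier results of these data known. RNA-seq was done on 2 mouse kidney epithelial lines, each with 2 libraries per treatment. The 4 groups were Pkd1-/- cells (line null(PN)) given THZ1 at 50 nM over 6 h, Pkd1-/- cells given DMSO, Pkd1+/- cells (line pkd1(PH)) given the same THZ1 treatment, and Pkd1+/- cells given DMSO. THZ1 is a covalent inhibitor of CDK7, the kinase of the general transcription factor TFIIH. Pkd1 encodes polycystin-1 and is mutated in most families with autosomal dominant polycystic kidney disease. All 4 groups grew in DMEM-F12 medium with serum, insulin-transferrin-selenium, IFNγ and T3, so the controls carried these agents too. Each genotype was 1 line, so loss of Pkd1 and any other difference between the lines cannot be told apart.

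Ribosomes are built in the nucleolus. RNA polymerase I transcribes the long precursor of the 18S, 5.8S and 28S rRNAs, and RNA polymerase III supplies 5S rRNA and tRNAs. The precursor is modified by small nucleolar ribonucleoproteins (snoRNPs), of which the box C/D type guides 2'-O-methylation and the box H/ACA type guides pseudouridylation. It is then cut, folded and loaded with ribosomal proteins by assembly factors of the small (40S) and large (60S) subunits. The factors themselves are encoded by genes that RNA polymerase II transcribes, and CDK7 phosphorylates that polymerase. The libraries were made from oligo dT-selected RNA, so they measured the mRNAs of the machinery and not the rRNA it makes.

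The values are FPKM (fragment counts scaled to transcript length and library size), as deposited. The members comprised 5 RNA polymerase I subunits, 9 RNA polymerase III subunits, 4 box C/D snoRNP proteins, 4 box H/ACA snoRNP proteins, 22 small-subunit factors, 13 large-subunit factors and 5 other nucleolar proteins. The remaining 3, Nol3, Nol4 and Nol4l, were caught by name only. Nol3 is an apoptosis repressor, and these genes are not known as ribosome factors. The test required a mean of at least 1 FPKM over all libraries and was made on 64 of the 65 members and 10731 genes. Nol4, at 0.01 to 0.07 FPKM, was not tested. Among the tested members the levels ran over a wide range, with Npm1 at 548.29 to 952.56 FPKM at the top and Utp14b at 0.72 to 2.83 FPKM near the bottom.

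Replicates agreed closely, with a Pearson correlation of log2 values of 0.997 to 0.998 across genes within each group. The labels do not state that replicates were separate cultures. Every p-value is therefore relative to the spread between these libraries alone, and that spread may be technical. The steps between low FPKM values correspond to an estimated 17.5 to 18.3 M fragments per library. Pkd1 itself was at 1.21 to 1.22 FPKM in THZ1-treated null cells, 1.32 to 1.69 in DMSO-treated null cells, 3.71 to 4.20 in THZ1-treated heterozygous cells and 4.58 to 5.30 in DMSO-treated heterozygous cells. The keratins Krt8 and Krt18 and the kidney genes Pax8, Pax2 and Cdh16 were all present, but the epithelial genes Epcam and Cdh1 were at no more than 0.42 FPKM in any library. Of 5 fibroblast markers, Col1a1 was at 23.8 to 23.9 FPKM in THZ1-treated null cells, 15.7 to 17.3 in DMSO-treated null cells, 3.1 to 3.6 in THZ1-treated heterozygous cells and 2.9 to 3.0 in DMSO-treated heterozygous cells. The other 4 were low in all libraries, with Pdgfra, Col3a1 and Dcn at no more than 0.39 FPKM and Pdgfrb at 0.31 to 0.87 FPKM. Summed endothelial markers were at most 0.20 FPKM. Of 4 leukocyte markers, Adgre1 and Cd3e were at 0 and Ptprc was at no more than 0.27 FPKM. The fourth, Cd68, was at 4.82 and 3.94 FPKM in THZ1-treated null cells, against 2.09 and 1.72 with DMSO, and at 3.09 and 2.70 in THZ1-treated heterozygous cells, against 2.85 and 2.64 with DMSO. The part of what moved Col1a1 and Cd68 in the results was not tested. Fewer cells of a kind and less RNA per cell cannot be told apart in bulk samples.

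**Figure D1:**
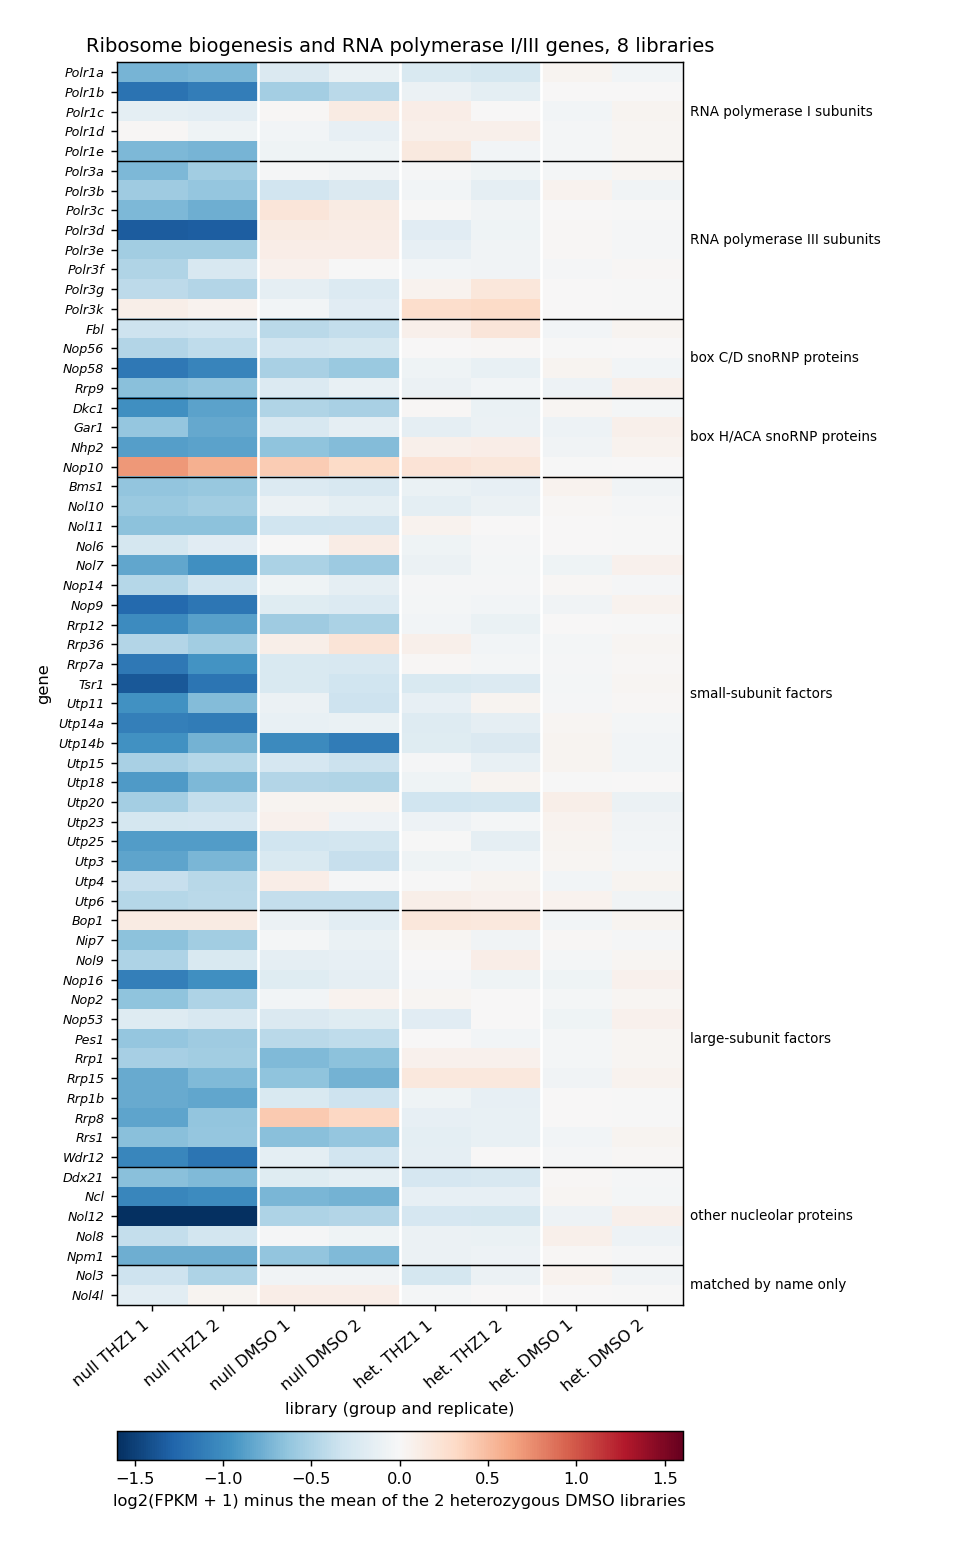
Heat map of 63 of the 64 tested members (rows, grouped by role) in each of the 8 libraries (columns), as the log2(FPKM + 1) difference from the mean of the 2 DMSO-treated heterozygous libraries. The THZ1-treated null libraries are the lowest for most rows, while Nop10 is higher there than in the heterozygous DMSO libraries.

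The first question was what THZ1 did to these mRNAs in null cells. In null cells 52 of the 64 tested members fell and 4 rose with THZ1, and 8 did not pass the test. Over all tested genes 51.1% fell and 24.6% rose. The member share that fell was thus 81.3%, above the share of all genes. The median log2 change of the members was -0.39, against -0.17 over all tested genes. The decreases were broad but mostly moderate. On the log2(FPKM + 1) scale of the test only 3 members, Polr3d, Nol12 and Rrp8, fell by 2-fold or more. This is 3 of 64 where 8.48% of all genes did so. The test was limma's moderated test on log2(FPKM + 1), with all 8 libraries in the fit and Benjamini-Hochberg adjustment over all tested genes, and a change was called at an adjusted p below 0.05. On this scale the change of a gene with low FPKM is understated, so the 2-fold count is too. Nop9, Utp14a and Tsr1, at -0.99, -0.99 and -0.98, fell just short of it. The mean FPKM of Nop9 was 7.20 with THZ1, against 15.28 with DMSO, a fall of more than 2-fold in FPKM itself.

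The count depends on how the libraries are scaled. Median-of-ratios scaling, which assumes that the typical gene did not change, gave 34 members lower and 12 higher in THZ1-treated against DMSO-treated null cells. Of the 10731 tested genes 3942 were lower and 4363 higher under median-of-ratios scaling. This scaling put the median of all genes at 0.03 in place of -0.17, and the median of the members at -0.19. The gap between the members' median and that of all genes was -0.22 under both scalings. Of the 52 decreases, 34 held under all 3 scalings tried.

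RNA polymerase I was represented by 5 subunits, of which 4 fell with THZ1 in null cells and none rose. The decreases of Polr1a, Polr1b and Polr1e held under every scaling. Polr1a encodes the largest, catalytic subunit. It was at 14.25 and 14.57 FPKM in THZ1-treated null cells, against 20.76 and 22.71 in DMSO-treated null cells, and at 20.49 and 20.09 in THZ1-treated heterozygous cells, against 25.32 and 23.75 in DMSO-treated heterozygous cells. The treated libraries lay below the untreated ones in both lines. Polr1b, the second-largest subunit, was at 9.05 and 9.62 FPKM in THZ1-treated null cells, against 14.72 and 15.86 with DMSO, and at 20.48 and 19.40 in THZ1-treated heterozygous cells, against 21.83 in both DMSO libraries. All null libraries lay below all heterozygous ones for this subunit. The log2 change in null cells was -0.56 ± 0.06 for Polr1a and -0.66 ± 0.06 for Polr1b (SE, limma adjusted p = 1.69e-06 and 5.21e-07). Polr1e, which binds the polymerase as an accessory subunit, fell by the same 0.66. It was at 3.23 and 3.17 FPKM in THZ1-treated null cells, against 5.63 in both DMSO libraries.

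Polr1c and Polr1d belong to RNA polymerase I and RNA polymerase III alike. Polr1c fell by 0.24 in null cells, a call that did not hold under every scaling. Polr1d was at 131.31 and 123.52 FPKM in THZ1-treated null cells, against 126.00 and 118.85 with DMSO, and these libraries overlapped. Its log2 difference was 0.06 ± 0.05 (limma adjusted p = 0.276).

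All 9 RNA polymerase III subunits passed the test in null cells, 8 lower and 1 higher with THZ1. Of these, only the decreases of Polr3a, Polr3c, Polr3d, Polr3e and Polr3f held under every scaling. The lowest value of all 64 members was that of Polr3d (chr14:70438748-70443471, mm10), whose product pairs with that of Polr3e in a subcomplex related to the initiation factor TFIIF. Polr3d was at 3.62 and 3.70 FPKM in THZ1-treated null cells, against 11.83 and 11.70 with DMSO, and at 9.33 and 10.09 in THZ1-treated heterozygous cells, against 10.86 and 10.49 with DMSO. The 2 treated null libraries stood far below the other 6. The log2 change in null cells was -1.45 ± 0.07 (limma adjusted p = 1.64e-09). Its partner Polr3e fell less, by 0.66, and was at 4.33 and 4.31 FPKM in THZ1-treated null cells, against 7.39 and 7.40 with DMSO.

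Polr3c, Polr3f and Polr3g form the arm of the enzyme that takes part in promoter opening. Polr3c was at 17.93 and 17.17 FPKM in THZ1-treated null cells, against 34.72 and 33.29 with DMSO, and at 30.03 and 28.99 in THZ1-treated heterozygous cells, against 30.42 and 30.14 with DMSO. Again it was the treated null libraries that stood apart. The log2 change in null cells was -0.92 ± 0.05 for Polr3c (limma adjusted p = 5.3e-09), -0.40 for Polr3f and -0.26 for Polr3g. The Polr3g call was lost without DMSO replicate 1 of the null line, at -0.23. Polr3g was the lowest subunit in level, at 2.1 and 2.0 FPKM in THZ1-treated null cells, against 2.76 and 2.57 with DMSO, and at 3.32 and 3.71 FPKM in THZ1-treated heterozygous cells, against 3.17 and 3.15 with DMSO. Its paralog Polr3gl, outside the naming rule, fell by 0.59.

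Polr3a and Polr3b encode the catalytic core. Polr3a was at 3.95 and 4.55 FPKM in THZ1-treated null cells, against 7.05 and 6.81 with DMSO, and at 7.02 and 6.77 in THZ1-treated heterozygous cells, against 6.94 and 7.33 with DMSO. It fell by 0.60 in null cells, and Polr3b fell by 0.32. Polr3k, a small subunit needed for RNA cleavage and termination, ran the other way. It was at 20.70 and 20.07 FPKM in THZ1-treated null cells, against 18.67 and 16.90 with DMSO, and at 23.64 and 24.11 in THZ1-treated heterozygous cells, against 19.39 and 19.19 with DMSO. The treated libraries were above the untreated ones in both lines. The log2 change was 0.19 ± 0.06 in null cells (limma adjusted p = 0.00851). This call was lost without DMSO replicate 2 of the null line, at 0.12, and when values were divided by the library totals, at 0.11.

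The snoRNP core proteins did not move as blocks. Among box C/D proteins, 3 of 4 fell in null cells. Nop58 (chr1:59684961-59711510), a scaffold of the particle, was at 39.31 and 41.80 FPKM in THZ1-treated null cells, against 61.28 and 58.09 with DMSO, and at 84.39 and 81.08 in THZ1-treated heterozygous cells, against 90.91 and 85.88 with DMSO. The 4 groups stood in that order with no overlap between them. Its log2 change in null cells was -0.55 ± 0.05 (limma adjusted p = 4.71e-07). Nop56, with which Nop58 pairs, was at 90.61 and 94.28 FPKM in THZ1-treated null cells, against 101.32 and 103.43 with DMSO, and at 126.87 and 127.94 in THZ1-treated heterozygous cells, against 125.47 and 126.07 with DMSO. It fell by 0.15 in null cells as deposited, and the sign turned to 0.08 under median-of-ratios scaling.

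Fibrillarin, the methyltransferase of the box C/D particle, is encoded by Fbl. It was at 77.31 and 77.66 FPKM in THZ1-treated null cells, against 71.98 and 74.47 with DMSO, and at 103.45 and 111.92 in THZ1-treated heterozygous cells, against 94.64 and 100.14 with DMSO. Each treated library was above the untreated ones of its line. The log2 difference in null cells, 0.08 ± 0.05, did not pass the test (limma adjusted p = 0.139). Rrp9, specific to the U3 snoRNP that takes part in the early cuts of the precursor, fell by 0.48.

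All 4 box H/ACA proteins passed the test in null cells, 3 lower and 1 higher. Dkc1, the pseudouridine synthase dyskerin, was at 11.39 and 12.51 FPKM in THZ1-treated null cells, against 16.57 and 16.06 with DMSO, and at 23.79 and 21.78 in THZ1-treated heterozygous cells, against 24.09 and 22.89 with DMSO. It fell by 0.42, while Gar1 fell by 0.52 and Nhp2 by 0.20 as deposited, with Nhp2 at 0.02 under median-of-ratios scaling. Nop10 (chr2:112261926-112262898), a small protein of the same particle, was at 151.28 and 138.60 FPKM in THZ1-treated null cells, against 122.73 and 114.61 with DMSO, and at 107.69 and 105.31 in THZ1-treated heterozygous cells, against 92.56 and 92.96 with DMSO. It rose by 0.29 ± 0.05 in null cells (limma adjusted p = 0.000154), the largest increase among the members.

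Of the small-subunit factors 20 of 22 were lower and none higher in THZ1-treated null cells. Their median log2 change was -0.42. The decreases of Bms1, Nol10, Nol11, Nop9, Rrp12, Rrp36, Rrp7a, Tsr1, Utp11, Utp14a, Utp20, Utp25, Utp3 and Utp4 held under every scaling, and the others did not. Nop9, an RNA-binding factor known from yeast to act on the 20S precursor, was at 6.95 and 7.44 FPKM in THZ1-treated null cells, against 15.41 and 15.15 with DMSO, and at 17.32 and 17.21 in THZ1-treated heterozygous cells, against 17.07 and 18.50 with DMSO. Utp14a, which in yeast stimulates the helicase that releases U3, was at 4.49 and 4.41 FPKM in THZ1-treated null cells, against 9.76 and 9.88 with DMSO, and at 9.15 and 9.66 in THZ1-treated heterozygous cells, against 10.95 and 10.52 with DMSO. Tsr1, a late 40S maturation factor, was at 13.74 and 15.73 FPKM in THZ1-treated null cells, against 30.81 and 29.08 with DMSO, and at 30.74 and 31.20 in THZ1-treated heterozygous cells, against 35.89 and 37.28 with DMSO. For these 3 genes the treated null libraries were the lowest of all and did not overlap with any other group. Their log2 changes in null cells were close together, at -0.99 for Nop9, -0.99 for Utp14a and -0.98 for Tsr1, each with a standard error of 0.06 (limma adjusted p = 1.72e-08, 2.85e-08 and 2.05e-08). Utp20, a large scaffold of the small-subunit processome, was at 11.49 and 12.99 FPKM in THZ1-treated null cells, against 17.77 and 17.69 with DMSO, and at 13.58 and 13.87 in THZ1-treated heterozygous cells, against 18.34 and 16.12 with DMSO. It fell by 0.50 in null cells. The small-subunit factors that did not pass were Utp6, at -0.06, and Utp14b, at 0.20.

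The promoters below belong to the 6 members with the smallest adjusted p for THZ1-treated against DMSO-treated null cells that had an entry in the sequence table, and show what stands upstream of the members that fell most clearly. Polr3d had the smallest p but no entry. Each runs 5' to 3' on the gene's strand and holds 250 bases before the start and 50 bases after it, from RefSeq on GRCm38.p6. Capitals mark matches to CACGTG (the E-box bound by MYC and related factors), CCGGAAG (an ETS-type core) and TATAAA on either strand. The windows are chr15:78934683-78934982 (+) for Nol12, chr3:96727390-96727689 (-) for Polr3c, chr14:55745443-55745742 (+) for Nop9, chr11:74897830-74898129 (+) for Tsr1, chr7:105737336-105737635 (-) for Rrp8 and chrX:48256684-48256983 (+) for Utp14a.
Nol12: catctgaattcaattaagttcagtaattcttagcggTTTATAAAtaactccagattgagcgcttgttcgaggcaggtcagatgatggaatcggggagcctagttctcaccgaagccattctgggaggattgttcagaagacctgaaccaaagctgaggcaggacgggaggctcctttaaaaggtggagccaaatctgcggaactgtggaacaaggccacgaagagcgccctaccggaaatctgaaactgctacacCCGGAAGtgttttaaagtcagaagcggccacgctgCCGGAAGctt
Polr3c: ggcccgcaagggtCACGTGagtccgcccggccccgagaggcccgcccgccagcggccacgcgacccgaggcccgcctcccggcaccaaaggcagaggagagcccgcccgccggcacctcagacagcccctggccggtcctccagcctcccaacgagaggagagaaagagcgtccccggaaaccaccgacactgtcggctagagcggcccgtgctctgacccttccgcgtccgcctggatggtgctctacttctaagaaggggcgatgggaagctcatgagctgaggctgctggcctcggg
Nop9: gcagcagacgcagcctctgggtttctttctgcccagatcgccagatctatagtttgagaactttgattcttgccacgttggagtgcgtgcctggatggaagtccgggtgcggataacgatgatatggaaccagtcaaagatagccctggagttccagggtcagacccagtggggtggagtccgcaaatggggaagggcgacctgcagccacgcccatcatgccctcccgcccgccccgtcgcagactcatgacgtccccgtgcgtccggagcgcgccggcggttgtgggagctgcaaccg
Tsr1: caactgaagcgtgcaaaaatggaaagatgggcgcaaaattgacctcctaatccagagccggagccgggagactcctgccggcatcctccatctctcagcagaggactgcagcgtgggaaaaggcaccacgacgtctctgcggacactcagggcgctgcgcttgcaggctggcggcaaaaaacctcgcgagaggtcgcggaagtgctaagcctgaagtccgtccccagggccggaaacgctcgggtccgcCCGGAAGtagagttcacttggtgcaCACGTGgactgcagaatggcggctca
Rrp8: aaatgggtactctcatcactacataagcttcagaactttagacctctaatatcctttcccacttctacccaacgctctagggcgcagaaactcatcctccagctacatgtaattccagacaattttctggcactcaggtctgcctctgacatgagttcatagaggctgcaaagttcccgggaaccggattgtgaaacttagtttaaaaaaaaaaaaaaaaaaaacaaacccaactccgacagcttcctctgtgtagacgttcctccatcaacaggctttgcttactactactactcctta
Utp14a: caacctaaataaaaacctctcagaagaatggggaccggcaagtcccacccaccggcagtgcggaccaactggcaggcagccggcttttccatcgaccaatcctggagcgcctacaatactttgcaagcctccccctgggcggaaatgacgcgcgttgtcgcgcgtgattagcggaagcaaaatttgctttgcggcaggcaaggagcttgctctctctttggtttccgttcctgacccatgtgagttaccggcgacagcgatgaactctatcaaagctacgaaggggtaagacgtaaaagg
The Nol12 window held CCGGAAG at 6 and 41 bases after the start, and overlapping TATAAA matches on both strands 212 and 214 bases before it. In Polr3c, CACGTG stood 237 bases before the start. Tsr1 had CACGTG 25 bases after the start and CCGGAAG 1 base before it. No capital appears in the Nop9, Rrp8 and Utp14a windows. A promoter entry was found for 50 of the 65 members. CACGTG occurred in 24% of them, against 12.2% of the 8689 tested genes with an entry and 8.09% of all 27025 genes in the table, with a gene counted once if any of its promoters held the motif. CCGGAAG occurred in 36% of the members, against 22.1% of tested genes, and TATAAA in 10%, against 8.03%. In null cells the median log2 change with THZ1 was -0.54 for the 12 members with CACGTG and -0.41 for the 38 without. For CCGGAAG these medians were -0.45 both with and without the motif. These matches describe letters only and are not evidence of binding.

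The 13 large-subunit factors were more mixed, with 8 lower and 2 higher in THZ1-treated null cells and a median log2 change of -0.23. These shares, 61.5% lower and 15.4% higher, were near the 51.1% and 24.6% of all tested genes, whose median was -0.17. The decreases of Nip7, Nop16, Nop2, Rrp1b, Rrp8 and Wdr12 held under every scaling. The PeBoW complex, which is needed to process the 32S precursor, is made of Pes1, Bop1 and Wdr12. In THZ1-treated null cells Wdr12 and Pes1 fell as deposited, while Bop1 rose. Wdr12 was at 6.92 and 6.27 FPKM in THZ1-treated null cells, against 13.64 and 12.24 with DMSO, and at 13.82 and 15.36 in THZ1-treated heterozygous cells, against 15.15 and 15.46 with DMSO. Bop1 was at 49.83 and 49.76 FPKM in THZ1-treated null cells, against 42.52 and 40.18 with DMSO, and at 51.58 and 51.15 in THZ1-treated heterozygous cells, against 44.05 and 46.73 with DMSO. Pes1 was at 32.42 and 33.55 FPKM in THZ1-treated null cells, against 37.02 and 37.65 with DMSO, and at 50.51 and 48.72 in THZ1-treated heterozygous cells, against 49.15 and 51.23 with DMSO. With THZ1 in null cells Wdr12 fell by 0.88 ± 0.07 and Bop1 rose by 0.26 ± 0.05 (limma adjusted p = 2.74e-07 and 0.000201). Pes1 fell by 0.17 as deposited, and was at 0.05 under median-of-ratios scaling.

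Rrp8 (chr7:105731730-105737385), a methyltransferase that modifies 28S rRNA, was at 6.54 and 7.71 FPKM in THZ1-treated null cells, against 17.14 and 16.06 with DMSO, and at 11.42 and 11.45 in THZ1-treated heterozygous cells, against 12.63 and 12.46 with DMSO. It was highest in untreated and lowest in treated null cells. Its log2 change in null cells was -1.12 ± 0.07 (limma adjusted p = 2.7e-08). Nop16 fell by 0.87 and Nop2, a cytosine methyltransferase of 28S rRNA, fell by 0.57. Rrp1, known in yeast as a 60S assembly factor, was at 93.21 and 91.68 FPKM in THZ1-treated null cells, against 82.44 and 85.59 with DMSO, and at 141.92 and 141.72 in THZ1-treated heterozygous cells, against 131.96 and 138.94 with DMSO. It rose by 0.14 in null cells, a call that was lost without DMSO replicate 1 of that line, at 0.11, and with division by the library totals, at 0.05. Rrs1, at 0.01, Rrp15, at -0.05, and Nop53, at -0.02, did not pass the test.

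All 5 other nucleolar proteins fell in THZ1-treated null cells as deposited, but only the calls of Nol12 and Ddx21 held under every scaling. Nol12 (chr15:78934933-78941910), which in human cells takes part in cleavage of the rRNA precursor, changed most. It was at 5.36 and 5.97 FPKM in THZ1-treated null cells, against 15.48 and 15.75 with DMSO, and at 18.39 and 18.11 in THZ1-treated heterozygous cells, against 21.09 and 23.53 with DMSO. The 4 groups did not overlap. Its log2 change in null cells was -1.32 ± 0.07 (limma adjusted p = 3.78e-09). Ddx21, an RNA helicase that couples rRNA transcription and processing, was at 34.85 and 34.15 FPKM in THZ1-treated null cells, against 49.02 and 50.12 with DMSO, and at 46.35 and 46.77 in THZ1-treated heterozygous cells, against 56.93 and 55.32 with DMSO. It fell by 0.51 in null cells.

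Nucleolin and nucleophosmin, the abundant nucleolar proteins encoded by Ncl and Npm1, changed less. Ncl was at 58.23 and 59.35 FPKM in THZ1-treated null cells, against 72.53 and 70.98 with DMSO, and at 110.31 and 110.00 in THZ1-treated heterozygous cells, against 123.58 and 117.94 with DMSO. Npm1 was at 548.29 and 550.41 FPKM in THZ1-treated null cells, against 610.78 and 576.39 with DMSO, and at 884.31 and 893.38 in THZ1-treated heterozygous cells, against 952.56 and 935.80 with DMSO. For both genes the difference between the lines was larger than that with treatment. In null cells Ncl fell by 0.28 as deposited, a call that did not hold under every scaling. Npm1 fell by 0.11 as deposited but stood at 0.12 under median-of-ratios scaling. The Npm1 call was also lost without DMSO replicate 1, THZ1 replicate 1 or THZ1 replicate 2 of the null line, at -0.07 to -0.11. Npm1 has many processed pseudogenes, so its level rests on how the authors' counting placed shared reads.

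**Figure D2:**
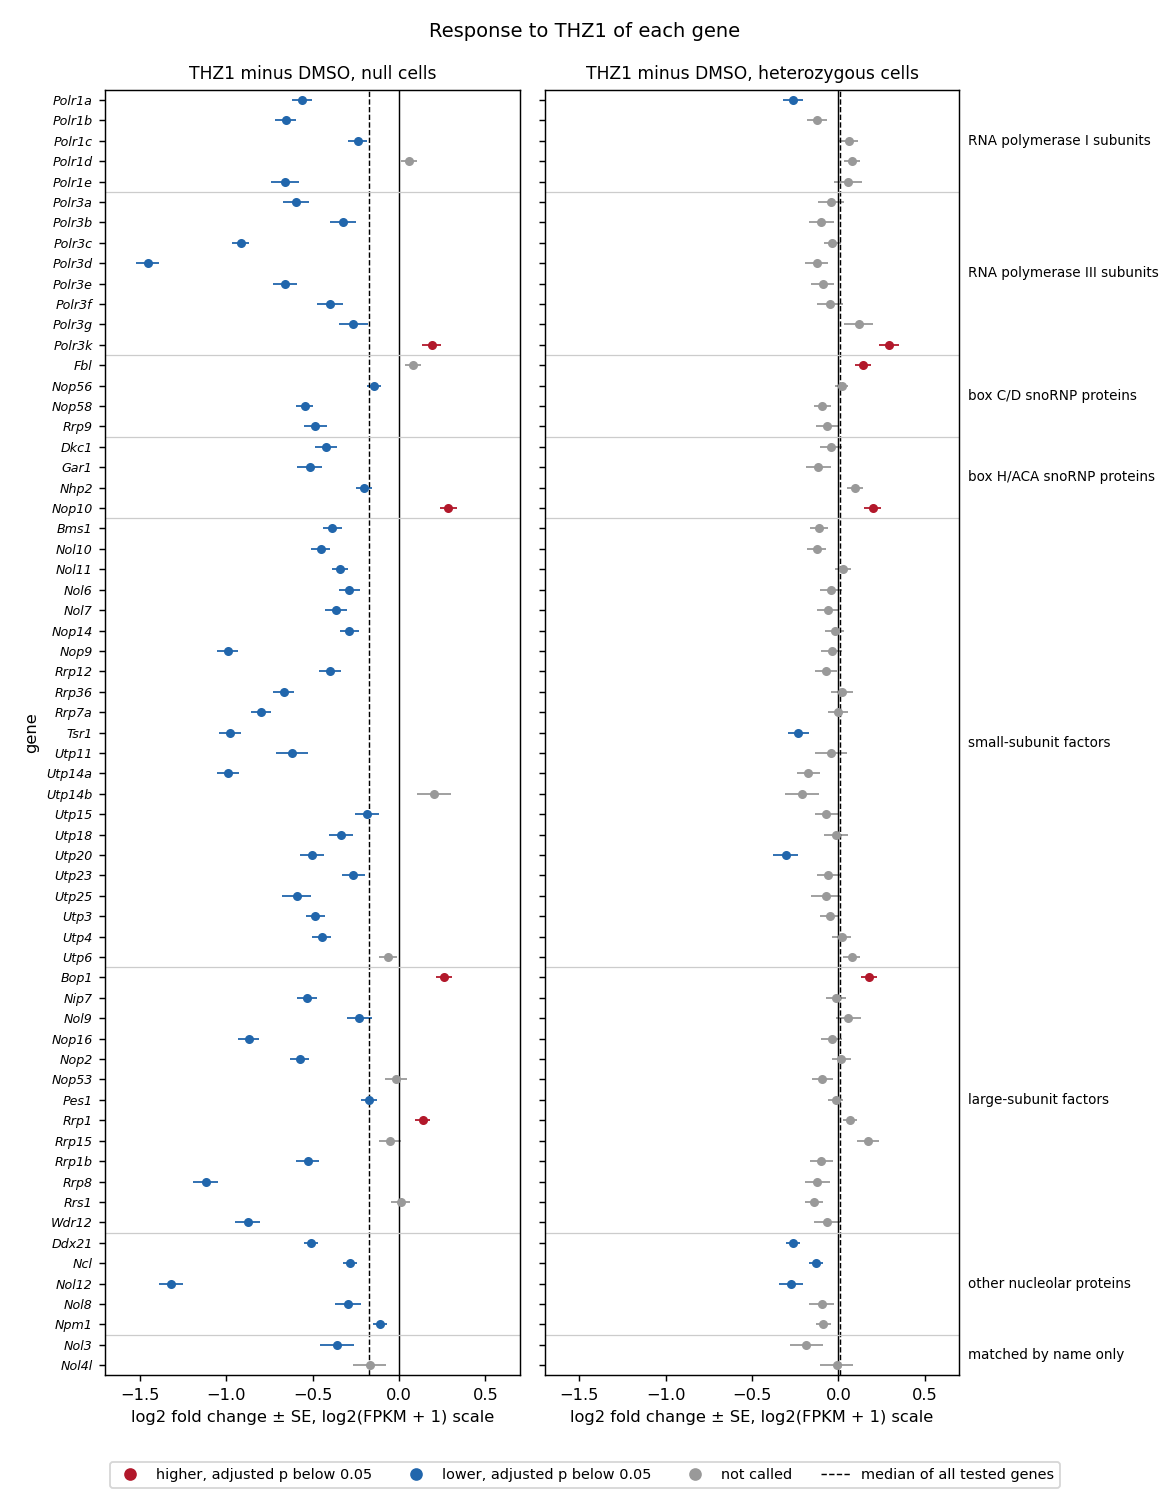
Log2 change with THZ1 against DMSO, on the log2(FPKM + 1) scale with its standard error, for 63 of the 64 tested members (rows, grouped by role), in null cells (left panel) and heterozygous cells (right panel). Colours mark called increases, called decreases and members not called, and the dashed line is the median of all tested genes. Most points lie below 0 in null cells and near 0 in heterozygous cells, with Polr3d at -1.45 in null cells and -0.13 in heterozygous cells.

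Other genes of the pathway, named by function and not by the symbol rule, are given next for THZ1 in null cells. These lists too were chosen with earlier results of these data known. Of all tested genes 51.1% fell, 24.6% rose and the median was -0.17. Under median-of-ratios scaling 3942 of the 10731 tested genes fell and 4363 rose. Among other small-subunit and 40S factors 32 of 38 fell and 1 rose with THZ1, with a median log2 change of -0.41, and under median-of-ratios scaling 21 fell and 3 rose. Bysl, an 18S maturation factor, fell by 1.18. Among other 60S factors 35 of 45 fell and 1 rose, with a median of -0.38, and under the same scaling 25 fell and 8 rose. The RNA exosome, which trims the 3' end of the 5.8S precursor, had 13 of 14 genes lower and none higher, with a median of -0.65 and Exosc1 at -1.61. The snoRNP assembly factors, with 6 of 10 lower, 1 higher and a median of -0.20, were close to the values for all genes. Under median-of-ratios scaling they had 1 lower and 2 higher with a median of 0.01.

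The polymerase cofactors included some of the larger changes. Of 10 RNA polymerase I initiation factors and subunits with other symbols, 9 fell and none rose in THZ1-treated null cells, with a median of -0.83. Ubtf, which binds the rDNA promoter and gene body, was at 14.50 and 16.09 FPKM in THZ1-treated null cells, against 30.25 and 31.65 with DMSO, and fell by 0.97. Ttf1, the RNA polymerase I termination factor, was at 2.48 and 2.97 FPKM in THZ1-treated null cells, against 9.18 and 8.87 with DMSO, and fell by 1.43. Rrn3, the factor that makes the polymerase competent for initiation, was at 37.88 and 38.46 FPKM in THZ1-treated null cells, against 39.15 and 36.85 with DMSO. These overlapped, with a log2 difference of 0.01. Of 18 RNA polymerase III initiation and regulatory genes 12 fell and 2 rose, with a median of -0.36. Under median-of-ratios scaling 9 fell and 4 rose, with a median of -0.14. Brf2 fell by 0.99, and Maf1, the repressor of RNA polymerase III, by 0.69.

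RNA polymerase II gave a different picture. Its own subunits had 4 of 8 higher and 4 lower in THZ1-treated null cells. Polr2a, the largest subunit, was at 121.97 and 124.73 FPKM in THZ1-treated null cells, against 47.01 and 51.19 with DMSO, and at 110.32 and 110.08 in THZ1-treated heterozygous cells, against 64.86 and 62.99 with DMSO. The treated libraries were above the untreated ones in both lines. The log2 increase was 1.31 in null cells and 0.78 in heterozygous cells. The 5 subunits shared between RNA polymerases, outside the naming rule, had 2 lower and 1 higher in THZ1-treated null cells. Their median was -0.14, near the -0.17 of all tested genes.

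The mRNAs of the ribosome itself went opposite to those of the factors that build it. All 78 cytosolic ribosomal protein genes were called higher in THZ1-treated null cells, where 24.6% of all genes were, with log2 changes of 0.19 to 0.80 and a median of 0.40. Rps28 was at 857.02 and 878.52 FPKM in THZ1-treated null cells, against 485.26 and 509.18 with DMSO. Over all alternative settings 76 to 78 were called higher and none lower, with medians of 0.31 to 0.63. Many of these mRNAs are short. Among tested genes with a longest coding transcript under 1000 bases that were not ribosomal protein genes, 196 of 473 rose and 154 fell, with a median of 0.05. The members held none so short, so length and gene class are partly tied, and the part of transcript length was not tested. Over all tested genes the response in null cells had a Spearman correlation of -0.01 with transcript length and 0.33 with mean expression. The part of expression level was not tested either. Within the ribosomal protein genes, 46 of 46 with transcripts under 1000 bases rose, as did 28 of 28 from 1000 to under 2500 bases and 4 of 4 of at least 2500 bases.

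**Figure D3:**
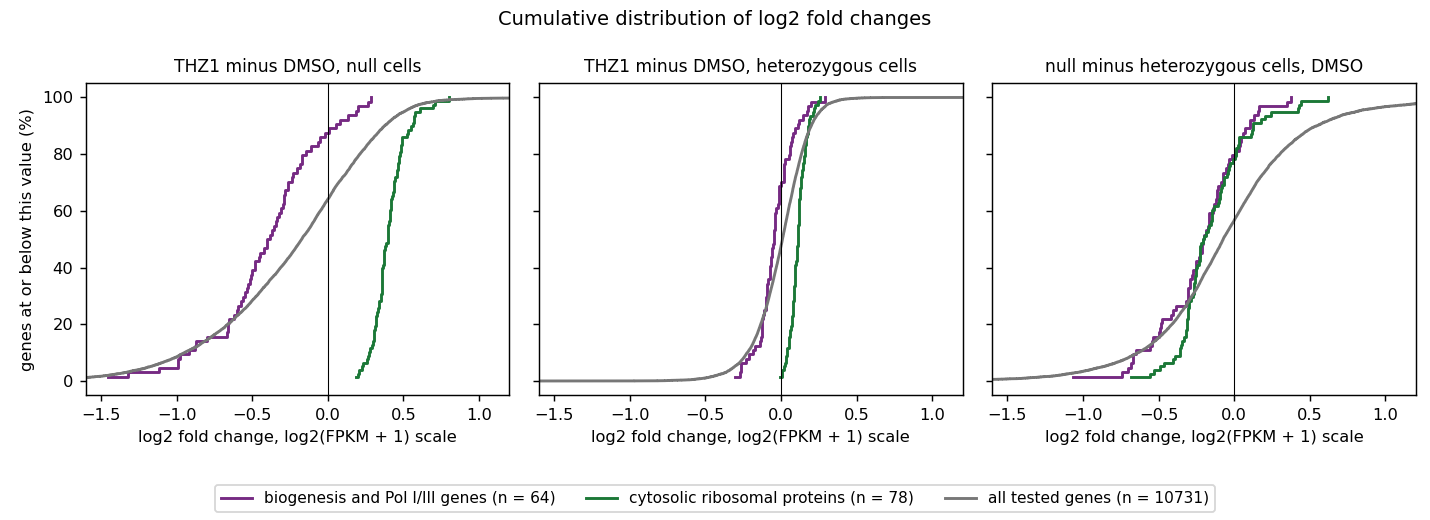
Cumulative share of genes (percent) by log2 fold change for the members, the cytosolic ribosomal protein genes and all tested genes, for THZ1 against DMSO in null cells (left), the same in heterozygous cells (middle) and null against heterozygous cells in DMSO (right). In the left panel the members lie to the left of all genes except in the lowest tail, with medians of -0.39 and -0.17, and the ribosomal protein genes all lie above 0.

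In heterozygous cells the same drug left most members without a called change. With THZ1 6 members fell and 4 rose of the 64, and 54 did not pass the test. The called share was 15.6%, against 22.4% of all tested genes, with 10.3% of all genes lower and 12.2% higher. The median was -0.05 for the members and 0.01 for all genes. Those that fell were Utp20, Nol12, Ddx21, Polr1a, Tsr1 and Ncl, by 0.31, 0.27, 0.26, 0.26, 0.23 and 0.13. Those that rose were Polr3k, by 0.29, Nop10, by 0.20, Bop1, by 0.18, and Fbl, by 0.14. These calls rest on few libraries. Most were lost without DMSO replicate 1, THZ1 replicate 1 or THZ1 replicate 2 of the heterozygous line, and the calls over all tested genes became fewer as well. The members' median in these fits was -0.038 to -0.046. Division by the library totals gave 2 members higher and 9 lower, and over all 10731 tested genes 744 higher and 1448 lower. Ddx21 and Polr3k were the calls that held in every setting run, and their limma adjusted p-values were 0.0017 and 0.0043.

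The RNA polymerase III subunits showed how few called changes there were in heterozygous cells. Polr3k was the 1 subunit of 9 that passed the test, and the others had log2 differences of -0.13 to 0.12. None of the 13 large-subunit factors fell, and 2 of the 22 small-subunit factors did. Of the ribosomal protein genes 17 of 78 rose and none fell in THZ1-treated heterozygous cells, with a median of 0.11. That count was 3 without THZ1 replicate 1 of the line and 8 without THZ1 replicate 2 or without DMSO replicate 1, and the scalings gave 6 to 9.

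Whether the lines differed in their response was tested directly, as the THZ1 change in null cells minus that in heterozygous cells. This difference was negative and passed the test for 46 of 64 members and positive for 1. Over all tested genes 60.2% passed, 45.1% negative and 15.1% positive. The members' median was -0.32 and that of all genes -0.19. Negative differences of 2-fold or more on the log2(FPKM + 1) scale were reached by Polr3d and Nol12, and by 5.57% of all genes. The 5 most negative values were -1.33 ± 0.09 for Polr3d, -1.05 ± 0.10 for Nol12, -0.99 ± 0.10 for Rrp8, -0.95 ± 0.09 for Nop9 and -0.88 ± 0.07 for Polr3c (SE, limma adjusted p = 4.48e-07, 2.36e-06, 6.13e-06, 2.26e-06 and 8.71e-07). The positive one was Utp14b, at 0.41 ± 0.14 (limma adjusted p = 0.0217). Its call was lost without any 1 of DMSO replicate 1 and THZ1 replicate 2 of the heterozygous line and DMSO replicate 2 and THZ1 replicate 2 of the null line, at 0.31 to 0.40.

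Scaling also moved this split. It was 24 negative and 8 positive under median-of-ratios scaling, which put the median of all genes at 0.02. Over all 10731 tested genes that scaling gave 3126 negative and 3475 positive. Upper-quartile scaling gave 32 members negative and 5 positive, and over all tested genes 3937 negative and 2467 positive. The 24 that stayed negative and called in every setting included Polr1b, Polr1e, Polr3a, Polr3c, Polr3d and Polr3e. They also included Nop58 from the box C/D particle, Wdr12 from PeBoW and the small-subunit factors Nop9, Rrp7a, Tsr1 and Utp14a. By contrast, Ncl, Nop56 and Pes1, called negative as deposited, had values of 0.08, 0.07 and 0.07 under median-of-ratios scaling. For the 78 ribosomal protein genes the difference was positive and called in 74.

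Before treatment the lines already differed. In DMSO 37 members were lower and 4 higher in null than in heterozygous cells, and 23 did not pass the test. The called share was 64.1%, below the 70.0% of all tested genes, but 57.8% were lower, against 41.0% of all genes, and 6.3% higher, against 29.0%. The median was -0.20 for the members and -0.07 for all genes. Median-of-ratios scaling gave 28 members lower and 7 higher, and over all 10731 tested genes 3695 lower and 3717 higher.

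The share lower was highest among the snoRNP and nucleolar proteins. All 4 box C/D proteins were lower in DMSO-treated null than heterozygous cells, as were 3 of 4 box H/ACA proteins and 4 of 5 other nucleolar proteins. Leaving out each library in turn gave 30 to 39 members lower, and 28 of the 37 calls held in all of these fits. Rrp9, from the box C/D group, was lost without replicate 2 of the heterozygous DMSO group, at -0.08, without replicate 1 of the null DMSO group, at -0.12, and without either heterozygous THZ1 replicate, at -0.17. Gar1, from the box H/ACA group, was lost without the same DMSO replicates, at -0.12 and -0.14. Nhp2 was at 57.44 and 55.57 FPKM in DMSO-treated null cells, against 86.81 and 93.99 in DMSO-treated heterozygous cells, a log2 difference of -0.67. Nop58 differed by -0.56, Dkc1 by -0.50 and Fbl by -0.41. Among large-subunit factors 9 of 13 were lower, with Rrp15 at 14.52 and 13.33 FPKM in DMSO-treated null cells, against 22.32 and 24.26 in DMSO-treated heterozygous cells. Rrp15 differed by -0.70, Rrp1 by -0.68 and Rrs1 by -0.65. Of the small-subunit factors 13 of 22 were lower.

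Fewer of the polymerase subunits among the members passed this test. All 5 subunits shared between RNA polymerases, outside the naming rule, were instead lower in null cells, with a median of -0.38. Of all tested genes 41.0% were lower. Of 5 RNA polymerase I subunits 2 were lower in null cells, Polr1b by a log2 difference of -0.49 and Polr1a by one of -0.17. Of 9 RNA polymerase III subunits 2 were lower, with Polr3b at -0.27, and Polr3c was higher. The calls of Polr1a and Polr3b were lost without replicate 1 of either DMSO group, at -0.11 to -0.12 for Polr1a and -0.21 to -0.23 for Polr3b. Polr3d, with the largest decrease on THZ1 in null cells, had a log2 difference of 0.13 that did not pass the test (limma adjusted p = 0.0982). The 4 members higher in null cells were Rrp8, by 0.38, Nop10, by 0.35, Polr3c, by 0.16, and Rrp36, by 0.15. Rrp36 was at 21.32 and 23.17 FPKM in DMSO-treated null cells, against 19.47 and 20.26 in DMSO-treated heterozygous cells. Of the 4, Nop10 and Rrp8 held in every setting run. Polr3c was lost without DMSO replicate 1 of the null line, at 0.13, and Rrp36 without either DMSO replicate of the heterozygous line or DMSO replicate 2 of the null line, at 0.10 to 0.18.

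Utp14b had the most negative value in DMSO, at -1.07 ± 0.10 (limma adjusted p = 6.98e-07), but it is a retrogene whose exons overlap those of Acsl3 on the same strand. It was at 0.84 and 0.72 FPKM in DMSO-treated null cells, against 2.83 and 2.63 in DMSO-treated heterozygous cells. Acsl3 was at 6.77 and 6.47 FPKM in DMSO-treated null cells, against 16.24 and 15.91 in DMSO-treated heterozygous cells, a log2 difference of -1.16. The reads of the pair may be shared, and the part of Acsl3 in the Utp14b value was not tested.

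After THZ1 the lines stood furthest apart. In THZ1-treated cells 59 of 64 members were lower in the null line and 1 was higher, where 83.2% of all genes passed, 58.1% lower and 25.1% higher. The members' median was -0.59 and that of all genes -0.28. Under median-of-ratios scaling 47 were lower and 4 higher, with medians of -0.30 for the members and -0.0048 for all genes. Over all 10731 tested genes that scaling gave 4410 lower and 4347 higher. A decrease of 2-fold or more on the log2(FPKM + 1) scale was seen for 8 members, and for 14.3% of all genes. The 5 most negative values were -1.53 for Nol12, -1.20 for Polr3d, -1.16 for Nop9, -1.05 for Rrp7a and -1.04 for Wdr12. Rrp7a, a small-subunit processome factor, was at 26.47 and 30.34 FPKM in THZ1-treated null cells, against 60.58 and 58.67 in THZ1-treated heterozygous cells. All 14 polymerase subunits were lower in the null line as deposited, but Polr1c, Polr1d and Polr3k had values of 0.08, 0.20 and 0.08 under median-of-ratios scaling. The Polr1d call was also lost without either THZ1 replicate of the heterozygous line or THZ1 replicate 2 of the null line, at -0.07 to -0.11. Nop10 was the member that was higher, by 0.44 ± 0.05 (limma adjusted p = 2.11e-06).

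**Figure D4:**
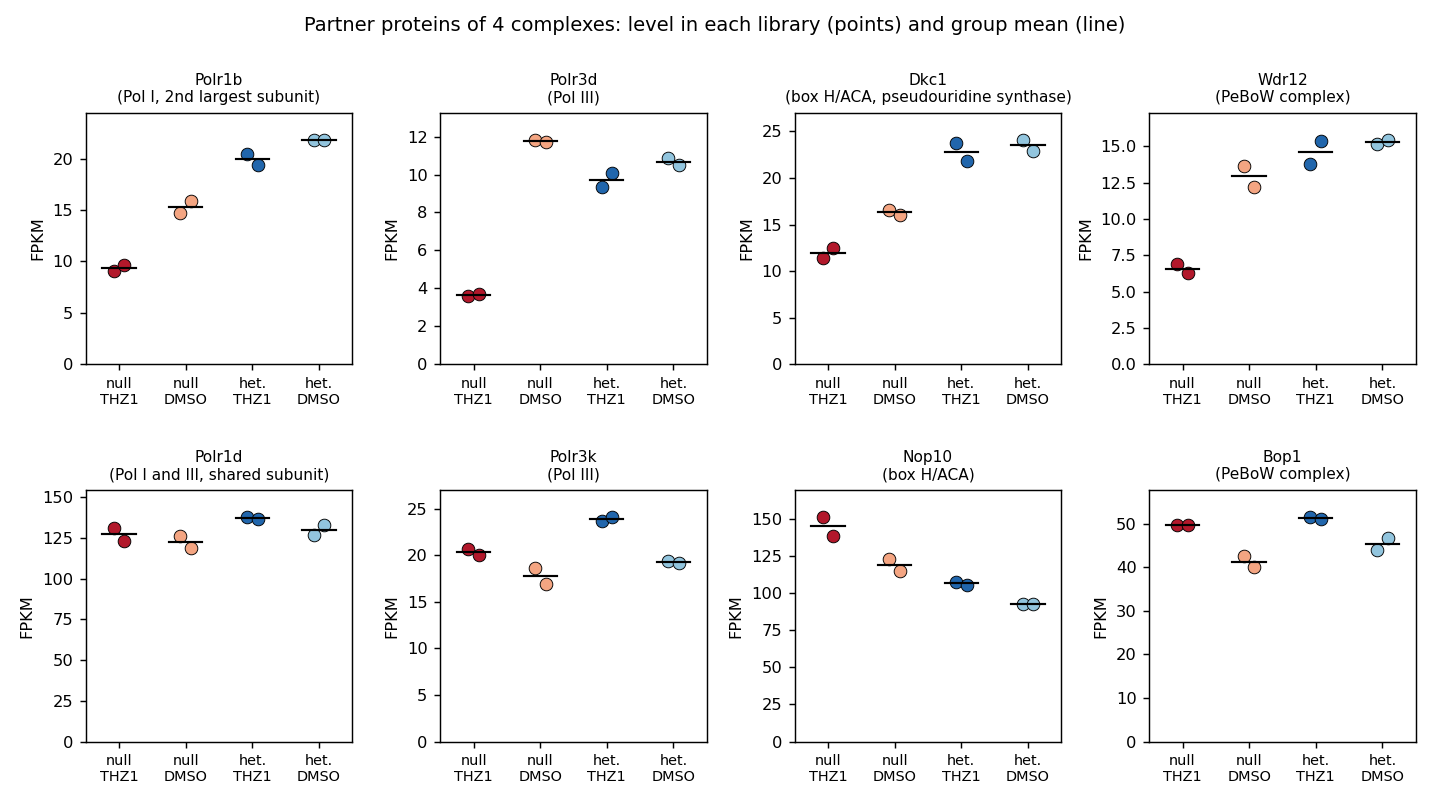
FPKM per library of member pairs that belong to the same complex, by group, with 1 point per library and a line at the group mean. In each pair 1 partner is lowest in the THZ1-treated null libraries while the other is not.

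The changes altered the mRNA ratio of some partners of the same complex. Such a ratio is taken within a library and does not depend on how libraries are scaled. The pairs were chosen after their values were seen, so these ratios are a description with no test. Nop10 over Dkc1 was 13.3 and 11.1 in THZ1-treated null cells, against 7.41 and 7.14 with DMSO, and 4.53 and 4.84 in THZ1-treated heterozygous cells, against 3.84 and 4.06 with DMSO. Polr3k over Polr3d was 5.72 and 5.42 in THZ1-treated null cells, against 1.58 and 1.44 with DMSO, and 2.53 and 2.39 in THZ1-treated heterozygous cells, against 1.79 and 1.83 with DMSO. Bop1 over Wdr12 was 7.20 and 7.94 in THZ1-treated null cells, against 3.12 and 3.28 with DMSO, and 3.73 and 3.33 in THZ1-treated heterozygous cells, against 2.91 and 3.02 with DMSO. In these 3 pairs the treated null libraries had the highest ratio, and the treated heterozygous libraries were above their untreated ones. More pairs were taken than are given here, and not all set the treated null libraries apart. Polr3g over its paralog Polr3gl was 0.213 and 0.225 in THZ1-treated null cells, against 0.217 and 0.235 in THZ1-treated heterozygous cells.

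Added together, the 65 members held 0.448% and 0.459% of all FPKM in THZ1-treated null cells, against 0.568% and 0.560% with DMSO. In heterozygous cells they held 0.672% and 0.676% with THZ1, against 0.717% and 0.706% with DMSO. The 4 groups did not overlap. Npm1 alone supplied 24.6% to 31.0% of the members' sum, so the share was also taken without it. It was then 0.326% and 0.335% in THZ1-treated null cells, against 0.424% and 0.422% with DMSO, and 0.474% and 0.476% in THZ1-treated heterozygous cells, against 0.495% and 0.493% with DMSO. The order of the groups was the same.

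**Figure D5:**
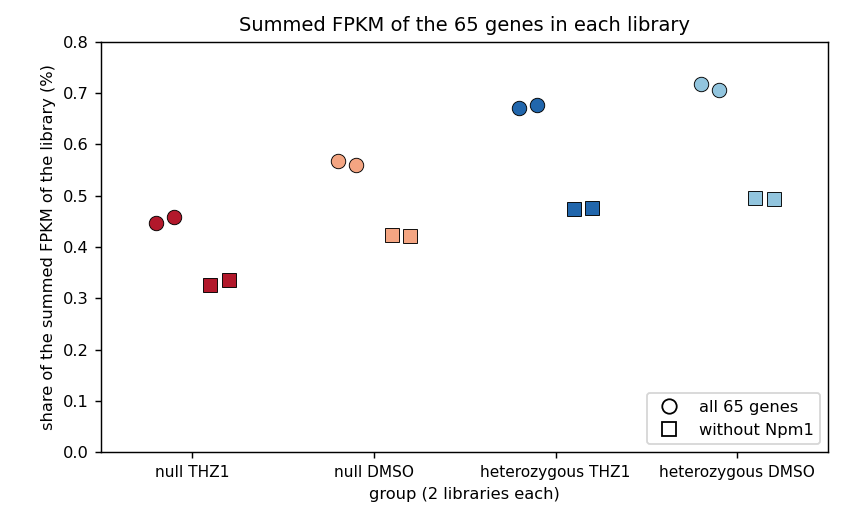
Share of all FPKM, in percent, held by the members in each library, with and without Npm1, by group. The THZ1-treated null libraries are lowest, at 0.448% and 0.459% with Npm1, and the DMSO-treated heterozygous libraries highest, at 0.717% and 0.706%.

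Across the tested members the response to THZ1 in null cells had a Spearman correlation of 0.32 with mean expression (n = 64 genes), close to the 0.33 over 10680 tested genes with an annotated transcript. The correlation with transcript length was -0.21 for the members and -0.01 for all genes. In heterozygous cells it was -0.49 for the members and -0.28 for all genes. These are correlations across genes of the same libraries, which are not independent replicates, and are given without a test. The exons of 14 members overlap those of another protein-coding gene, and the sources used here do not say whether counting used strand, so reads of such pairs cannot be told apart. Of the most affected members, Tsr1 overlaps Srr, which fell by 0.81 in THZ1-treated null cells, and Nop9 overlaps Cideb, which was below the filter. Rrp8 overlaps Ilk, whose log2 difference with THZ1 in null cells was -0.06. Ilk was at 144.58 and 144.99 FPKM in DMSO-treated null cells, against 105.13 and 108.85 in DMSO-treated heterozygous cells, a log2 difference of 0.43. Bop1 overlaps Mroh1, which was at 33.80 and 32.65 FPKM in THZ1-treated null cells, against 25.32 and 27.14 with DMSO, and rose by 0.33. Nhp2 overlaps Rmnd5b, which was at 25.62 and 26.68 FPKM in DMSO-treated null cells, against 47.45 and 54.91 in DMSO-treated heterozygous cells, a log2 difference of -0.94. Dkc1 overlaps Mpp1, which was at 7.21 and 8.46 FPKM in THZ1-treated null cells, against 11.19 and 11.59 with DMSO. In DMSO-treated heterozygous cells Mpp1 was at 0.28 and 0.26 FPKM, so its difference between the lines was opposite in sign to that of Dkc1. Nop56 overlaps Idh3b, which rose by 0.27 in THZ1-treated null cells. The part of these partners in the values of Tsr1, Rrp8, Bop1, Nhp2, Dkc1 and Nop56, and in the ratios with Bop1 or Dkc1, was not tested.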

How the data were processed

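RNA-seq was done on 8 libraries, 2 for each of 4 groups of line and drug. Per the labels' protocols, TRIzol was used to extract RNA and oligo dT to select it. The deposited tables give FPKM per Entrez gene, already normalized by the authors, for 18631 genes, 39 of them without a symbol. The submitters' processing notes name Bowtie2, DESeq2 and the mm10 build; the program that made the FPKM, its annotation and its strand handling are unknown: not given in the sources used here. FPKM are not counts, so no count model was fitted. Depth is known only as the estimate from FPKM steps.

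Genes with a mean of at least 1 FPKM were tested on log2(FPKM + 1) with limma 3.58.1 (R 4.3.3), with 1 mean per group, 4 residual degrees of freedom, a mean-dependent prior variance and no further scaling. P-values were adjusted over all tested genes for each of 5 comparisons. The method was tested on simulated data. Comparisons share libraries and are not independent of each other. Values per library are given for a set list of core members and for the 5 called members with the largest change each way in each comparison, as well as for members whose values a sentence rests on. The members and gene lists were chosen with earlier results of these data known. Gene coordinates are from RefSeq on GRCm38, the assembly called mm10 by the submitters. Transcript lengths and exon overlaps are from GENCODE M21. The alternatives tried were 3 scalings, a pseudocount of 0.1, filters, a replicate block, a fit to the compared groups only, and leaving out each library. The values of 1 member are not reported here, though the counts include it.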

Additional observations from a re-analysis of the deposited data

Results flagged for a closer look

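The response to THZ1 differed between the null and the heterozygous line for 47 members, by limma's test of the difference itself with an adjusted p below 0.05, and 46 are given here. The values are the log2 change with THZ1 in null cells minus that in heterozygous cells. Among RNA polymerase I subunits it was -0.71 for Polr1e, -0.53 for Polr1b, -0.30 for Polr1c and -0.30 for Polr1a. Among RNA polymerase III subunits it was -1.33 for Polr3d, -0.88 for Polr3c, -0.57 for Polr3e, -0.55 for Polr3a, -0.38 for Polr3g and -0.35 for Polr3f. For box C/D snoRNP proteins the values were -0.45 for Nop58, -0.42 for Rrp9 and -0.16 for Nop56. For box H/ACA snoRNP proteins they were -0.40 for Gar1, -0.38 for Dkc1 and -0.30 for Nhp2. The large-subunit factors had -0.99 for Rrp8, -0.83 for Nop16, -0.81 for Wdr12, -0.59 for Nop2, -0.52 for Nip7, -0.43 for Rrp1b and -0.29 for Nol9. Further values of this group were -0.22 for Rrp15 and -0.16 for Pes1. The other nucleolar proteins had -1.05 for Nol12, -0.25 for Ddx21 and -0.15 for Ncl. The small-subunit factors had -0.95 for Nop9, -0.82 for Utp14a, -0.80 for Rrp7a, -0.74 for Tsr1, -0.69 for Rrp36, -0.58 for Utp11 and -0.52 for Utp25. Further values of this group were -0.47 for Utp4, -0.43 for Utp3, -0.37 for Nol11, -0.33 for Rrp12, -0.33 for Nol10, -0.32 for Utp18 and -0.31 for Nol7. Further values of this group were -0.27 for Bms1, -0.27 for Nop14, -0.24 for Nol6 and 0.41 for Utp14b. All but that of Utp14b were negative. With 1 line per genotype, the part of Pkd1 in this difference cannot be told apart from that of other differences between the lines.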

How the results depend on the processing

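Scaling moved the counts and medians of 4 of the 5 comparisons, while those of THZ1 in heterozygous cells moved more with the filter and with single libraries. Under median-of-ratios scaling, members higher, lower and their median were 12, 34 and -0.19 for THZ1 in null cells, and 8, 24 and -0.10 for the difference in response. For null against heterozygous cells it gave 7 higher and a median of -0.13 in DMSO, and 4 higher and a median of -0.30 in THZ1. Upper-quartile scaling gave 7 higher and -0.31 for THZ1 in null cells, 5 higher and -0.22 for the difference in response, 2 higher and -0.42 between lines in THZ1, and -0.14 in DMSO. Division by the library totals also made the values larger before 1 was added, so it changed the weight of that 1 along with the scaling. It gave 2 higher and -0.50 for THZ1 in null cells, and 2 higher in heterozygous cells. With no filter 1 was higher and 2 lower in heterozygous cells. A minimum of 5 FPKM gave 0 higher in the difference, since Utp14b was not tested.

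Some signs turned under median-of-ratios scaling. For THZ1 in null cells the values became 0.0235 for Nhp2, 0.21 for Nop53, 0.0815 for Nop56, 0.12 for Npm1, 0.0495 for Pes1, 0.16 for Rrp15, 0.02 for Utp15 and 0.16 for Utp6. For the difference in response they were 0.0821 for Ncl, 0.0711 for Nop56, 0.21 for Npm1, 0.0737 for Pes1, 0.21 for Polr1d and 0.0011 for Rrp15. Between lines in THZ1 they were 0.26 for Bop1 (0.13 under upper-quartile scaling), 0.10 for Nol6, 0.029 for Nol8, 0.17 for Nop53, 0.0788 for Polr1c, 0.20 for Polr1d (0.0708 under upper-quartile scaling), 0.081 for Polr3k and 0.072 for Utp23. The cause was not tested.

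Leaving out each library in turn gave 1 to 5 higher and 2 to 6 lower for THZ1 in heterozygous cells, and 3 to 5 higher and 49 to 52 lower in null cells. The difference in response had members' medians of -0.35 to -0.29, against -0.20 to -0.17 over all tested genes. Replicate numbers did not pair the libraries, with correlations of their deviations of -0.09 to 0.14. With the replicate block 44 members were negative in the difference, and the other member counts did not move. A fit to the compared groups only gives no value for the difference, which needs all 4. Of the members called in null cells with THZ1, 34 of the 52 lower and 2 of the 4 higher held in every setting run. With 2 libraries per group and an unknown counting method, small differences between groups cannot be resolved.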
